A study of Homo sapiens with 8 samples.

Results

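The mRNAs of 9 S100 proteins, S100A2, S100A4, S100A6, S100A10, S100A11, S100A13, S100A14, S100A16 and S100P, were followed in RNA recovered with an antibody against the ribosomal protein RPS6. They were taken by gene symbol and are 9 of the 57756 genes listed in both expression tables of the series. RPS6 is a component of the small ribosomal subunit, and RNA immunoprecipitation (RIP) with its antibody recovers RNA that is held with this protein in a cell lysate. The comparison addressed here is whether an mRNA took a higher or lower share of the RIP library than of the matching input library.

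The series held 8 libraries, with 1 RPS6 RIP and 1 input library from each of 4 human cancer cell lines for which the labels give no treatment: Hep3B (hepatocellular carcinoma), HCT116 (colorectal carcinoma), DU145 (prostate carcinoma) and SW1990 (pancreatic carcinoma). The liver pair is titled 3B, and the study's methods name Hep3B, but its cell line field says Huh7. It is called Hep3B here, and all 6 hepatocyte marker genes were at 1 FPKM or more in its input, against 0, 1 and 0 of 6 in HCT116, DU145 and SW1990, which does not tell the 2 liver lines apart. Markers of the other tissues of origin did not set the lines apart. Of 5 intestinal genes, 1 was present in HCT116 and 3 in SW1990, of 4 prostate genes, 1 was present in DU145 and 2 in each of HCT116 and SW1990, and of 5 pancreatic duct genes, 4 were present in each of SW1990, HCT116 and DU145, while 4 of 4 epithelial genes were present in every line. Each line and group had 1 library, nothing in the labels speaks of separate cultures, and a control immunoprecipitation was not analysed here. Error is therefore given over the 4 cell lines. The libraries held between 34630338 and 54209625 fragments assigned to genes.

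S100 proteins are small calcium sensors of the EF-hand class. Most work as dimers that change shape when calcium binds and then grip a partner protein, such as an annexin or a myosin, and some also act outside the cell although they carry no signal peptide. Many of their genes lie side by side on the long arm of chromosome 1, and their levels in carcinomas differ widely between tumour types.

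Most S100 mRNAs took a lower share of the RIP libraries than of the inputs, although their summed share in Hep3B was close to level on counts and higher in the RIP on FPKM. Of the 9 mRNAs, 8 were lower in the RIP and 0 were higher at an adjusted p under 0.05 in edgeR's quasi-likelihood test with cell line as a block. Over all 19921 genes tested, 24.9% were lower by the same rule and 26.5% were higher. The 9 mRNAs were chosen with earlier results of these data known, so the 2 shares are set side by side only as a description. The median log2 fold change (RIP over input) of the 9 was -1.58, beside -0.05 over all genes tested and 0.13 over the 13564 protein-coding genes tested. The only mRNA of the 9 that was not called was S100A16, which had a log2 fold change of 0.45. Among the 8 called, S100P reached the minimum mean of 10 counts for testing through its inputs. Of the 36 pairs of an mRNA and a cell line, 32 had less in the RIP on the FPKM scale and 33 on the scale of depth-scaled counts. The edgeR calls lean on the cell line block, and without it 0 of the 8 were called. An exact sign-flip test of one gene over 4 lines cannot go below p = 0.125, so no mRNA could pass 0.05 by that test.

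Levels below are in FPKM (fragments scaled to transcript length and library depth, as deposited). Hep3B and HCT116 come from one table and DU145 and SW1990 from another, and the tables may have been normalized separately, so a level is compared between lines only as a description.

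**Figure D1:**
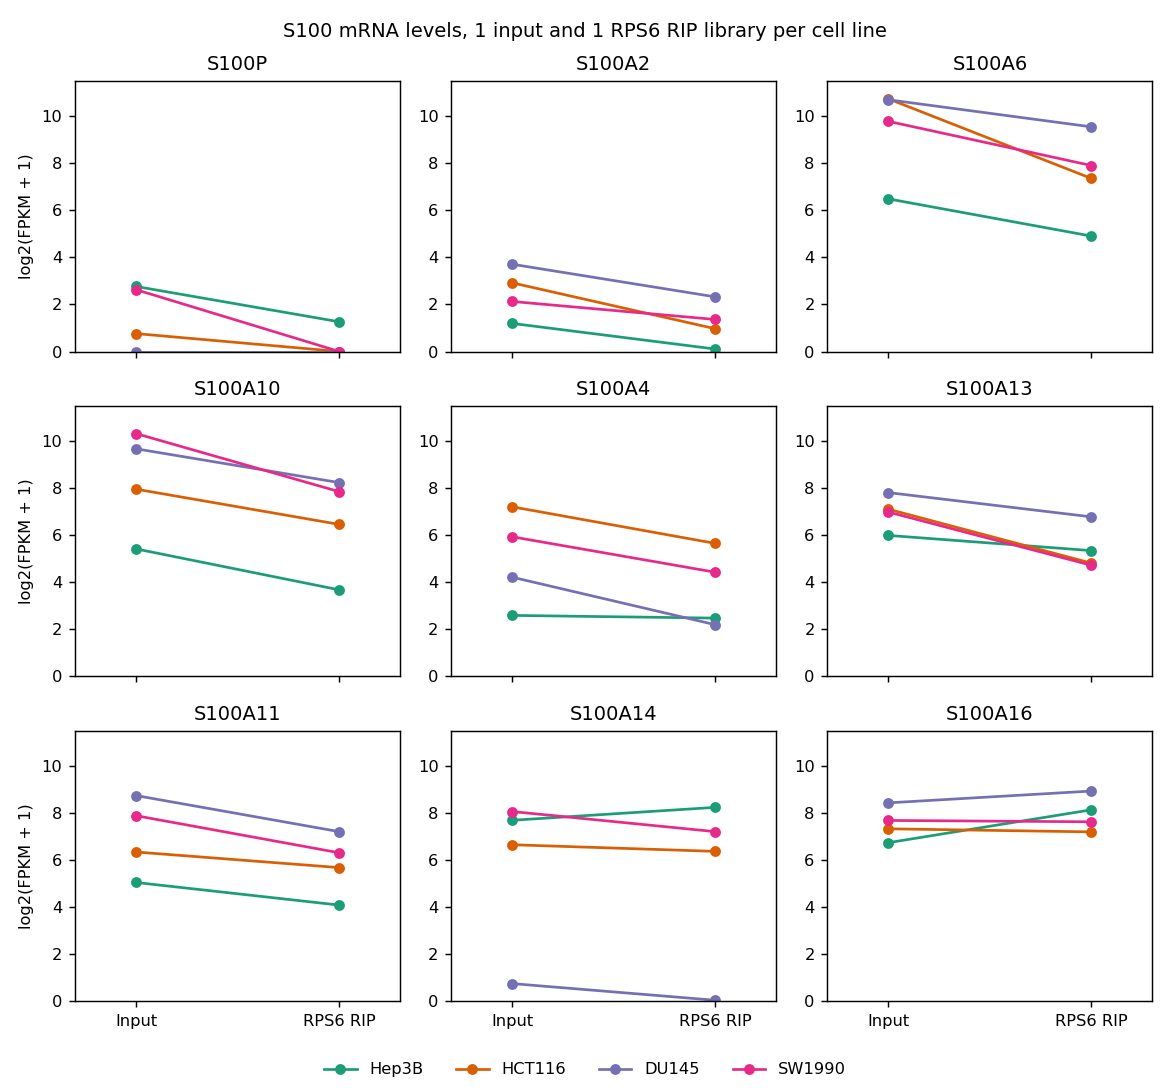
Levels of the 9 S100 mRNAs, as log2(FPKM + 1), in the input and RPS6 RIP library of each of the 4 cell lines, 1 point for each library and 1 line joining each pair. S100A10, S100A6 and S100A11 lay lower in the RIP in all 4 lines, while S100A16 lay higher in Hep3B and DU145.

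S100A10 (chr1:151955390-151966866, hg19), which has lost the ability to bind calcium and forms a tetramer with annexin A2 at membranes, had the lowest adjusted p of the 9. In the inputs it was at 1279 FPKM in SW1990, 817 in DU145, 248 in HCT116 and 41.8 in Hep3B. In the RIP libraries it was at 230 FPKM in SW1990, 301 in DU145, 87.1 in HCT116 and 11.8 in Hep3B. Every line was lower in its RIP library, although the groups overlapped because SW1990 held far more of this mRNA than Hep3B. Its log2 fold change was -2.09 ± 0.22 (SE), a 4.25-fold lower share, with an adjusted p of 3.39e-05 in edgeR's quasi-likelihood test. The mean log2 ratio of FPKM + 1 was -1.79 ± 0.47 (SD, n = 4 lines).

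S100A11 (chr1:151967006-152020383), a partner of annexin A1 with roles in membrane repair and keratinocyte growth, behaved alike in direction. Its input levels were 236 FPKM in SW1990, 428 in DU145, 80.3 in HCT116 and 32.1 in Hep3B. Its RIP levels were 78.4 FPKM in SW1990, 147 in DU145, 50.3 in HCT116 and 16 in Hep3B. All 4 lines were lower in the RIP, and HCT116 had the smallest gap. The share was 2.55-fold lower, with a log2 fold change of -1.35 ± 0.20 and an adjusted p of 0.000314.

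S100A6 (chr1:153506078-153508720), known as calcyclin and a partner of the ubiquitin ligase adaptor CACYBP, was the most abundant of the 9 in every line but the liver and pancreatic lines. Input levels were 883 FPKM in SW1990, 1668 in DU145, 1714 in HCT116 and 88.9 in Hep3B. RIP levels were 239 FPKM in SW1990, 749 in DU145, 163 in HCT116 and 29.0 in Hep3B. In the DU145 input it ranked 9 among the 14448 genes with a level above 0, and in the HCT116 input it ranked 42. The largest gap was that of HCT116 and the smallest that of DU145. The log2 fold change was -2.14 ± 0.32, a 4.40-fold lower share, with an adjusted p of 0.000269.

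S100A4 (chr1:153516088-153522612), which binds nonmuscle myosin and is known for its link to metastasis, had input levels of 60.2 FPKM in SW1990, 17.6 in DU145, 147 in HCT116 and 5.03 in Hep3B. Its RIP levels were 20.5 FPKM in SW1990, 3.58 in DU145, 49.3 in HCT116 and 4.57 in Hep3B. The Hep3B libraries were nearly level in FPKM, their 82 input fragments and 53 RIP fragments gave a log2 count ratio of -0.36, and the other lines had wider gaps. Across lines the share was 2.98-fold lower, with a log2 fold change of -1.58 ± 0.31 and an adjusted p of 0.00156. The files place S100A3, which reached at most 5.13 FPKM, in the same locus, so reads could have been split between the pair.

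S100A13 (chr1:153591262-153618782), which takes part in the release of growth factors that lack a signal peptide, was among the more evenly expressed. Input levels were 126 FPKM in SW1990, 224 in DU145, 137 in HCT116 and 62.7 in Hep3B. RIP levels were 25.4 FPKM in SW1990, 109 in DU145, 27.1 in HCT116 and 39.7 in Hep3B. HCT116 and SW1990 showed a much wider gap than Hep3B and DU145, and every line was lower in the RIP. The log2 fold change was -1.50 ± 0.29, a 2.83-fold lower share, with an adjusted p of 0.00155. Its locus in the files also holds CHTOP, with levels from 30.2 to 71.0 FPKM and a log2 fold change of -0.41 (adjusted p = 0.199), and S100A1. The strand setting of the counting is not given in the sources used here, so its counts carry that uncertainty.

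S100A2 (chr1:153533583-153540366), a largely nuclear S100 protein of epithelial cells, was scarce in the liver line. Input levels were 3.37 FPKM in SW1990, 12.1 in DU145, 6.57 in HCT116 and 1.29 in Hep3B. RIP levels were 1.57 FPKM in SW1990, 4 in DU145, 0.955 in HCT116 and 0.0745 in Hep3B. All 4 lines were lower in the RIP. The Hep3B values rest on 32 input fragments and 1 in the RIP, a ratio of 31.0 with an exact 95% interval of 5.17 to 1260 that covers counting error only. The share was 5.77-fold lower, with a log2 fold change of -2.53 ± 0.58 and an adjusted p of 0.00417.

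S100P (chr4:6694795-6698897), named for placenta and known from pancreatic carcinoma, is the only one of the 9 outside chromosome 1. Its input levels were 5.19 FPKM in SW1990, 0 in DU145, 0.696 in HCT116 and 5.80 in Hep3B. Its RIP level was 1.40 FPKM in Hep3B and 0 in each of the other 3 lines. In fragments, the input and RIP held 49 and 13 in Hep3B, 26 and 0 in HCT116, and 53 and 0 in SW1990. Against a floor of 3 fragments in the RIP library, with the input taken as counted, the share was at least 8.10-fold lower in HCT116. On the same terms it was at least 18.3-fold lower in SW1990, and it was 3.65-fold lower in Hep3B. The bounds leave out the counting error of the inputs. In DU145, 0 of its fragments were counted in either library, which gives no ratio. The edgeR test called it lower, with an adjusted p of 0.0343 that rose past the threshold without the HCT116 pair or without the SW1990 pair (0.141 in the latter). S100P reached the minimum mean of 10 counts for testing through its inputs. Its RIP counts, 15.8 in Hep3B and 0 in the other 3 lines, would not have reached it. With S100P set at its bound of -3.33 the median of the 9 stayed at -1.58, as it must while S100P lies below that median.

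S100A14 (chr1:153586730-153589462), an epithelial S100 protein with a poorly conserved calcium site, gave a result that depended on the scale. Input levels were 267 FPKM in SW1990, 0.682 in DU145, 99.7 in HCT116 and 206 in Hep3B. RIP levels were 147 FPKM in SW1990, 0.0290 in DU145, 81.8 in HCT116 and 302 in Hep3B. On the FPKM scale Hep3B was higher in its RIP library and the other 3 lines were lower, so the mean log2 ratio was -0.33 ± 0.63 (SD, n = 4 lines), with an exact two-sided sign-flip p of 0.375. On the count scale Hep3B was lower as well, with 7767 input fragments and 4862 in the RIP. The edgeR fit on counts gave a log2 fold change of -1.15 ± 0.34 and an adjusted p of 0.0154, which was 0.059 without the SW1990 pair. The DU145 values rest on 42 and 1 fragments.

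The gap between the scales is described here in 2 ways. In DU145, where both FPKM values were under 1, the log2 ratio was -0.71 on FPKM + 1 and -2.54 on counts, and with 0.1 in place of 1 the mean over lines was -0.80. In the other lines the deposited count and FPKM stood in unlike proportion in the 2 libraries. Dividing the deposited count by the FPKM and the library total gives an implied transcript length. It is built from the 2 scales themselves, so it restates their gap and is not a separate measure. For S100A14 the length in the RIP was 0.441 of the input length in Hep3B, 0.417 in HCT116 and 0.614 in SW1990. The same quotient was taken over expressed protein-coding genes with enough counts in both libraries, 11059 in Hep3B, 11048 in HCT116 and 10992 in SW1990. Its median was 0.717 in Hep3B, 0.647 in HCT116 and 0.725 in SW1990. The implied length of S100A14 thus fell further between input and RIP than that of the median gene of this set in these 3 lines. Whether the libraries held different isoforms or fragment sizes was not tested.

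S100A16 (chr1:153579361-153585621), a broadly expressed member with weak calcium binding, was the exception among the 9. Input levels were 205 FPKM in SW1990, 345 in DU145, 160 in HCT116 and 106 in Hep3B. RIP levels were 197 FPKM in SW1990, 489 in DU145, 146 in HCT116 and 281 in Hep3B. Hep3B and DU145 were higher in the RIP, and HCT116 and SW1990 were nearly level. The log2 ratio of FPKM + 1 was 1.40 in Hep3B, 0.50 in DU145, -0.06 in SW1990 and -0.12 in HCT116, with a mean of 0.43 ± 0.71 (SD, n = 4 lines). The edgeR fit gave 0.45 ± 0.26 with an adjusted p of 0.179, so a difference was not shown in either direction. S100A16 and S100A14 are neighbours on chromosome 1 and have implied lengths of 980 and 1034 nt (median of the inputs), the longest of the 9.

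**Figure D2:**
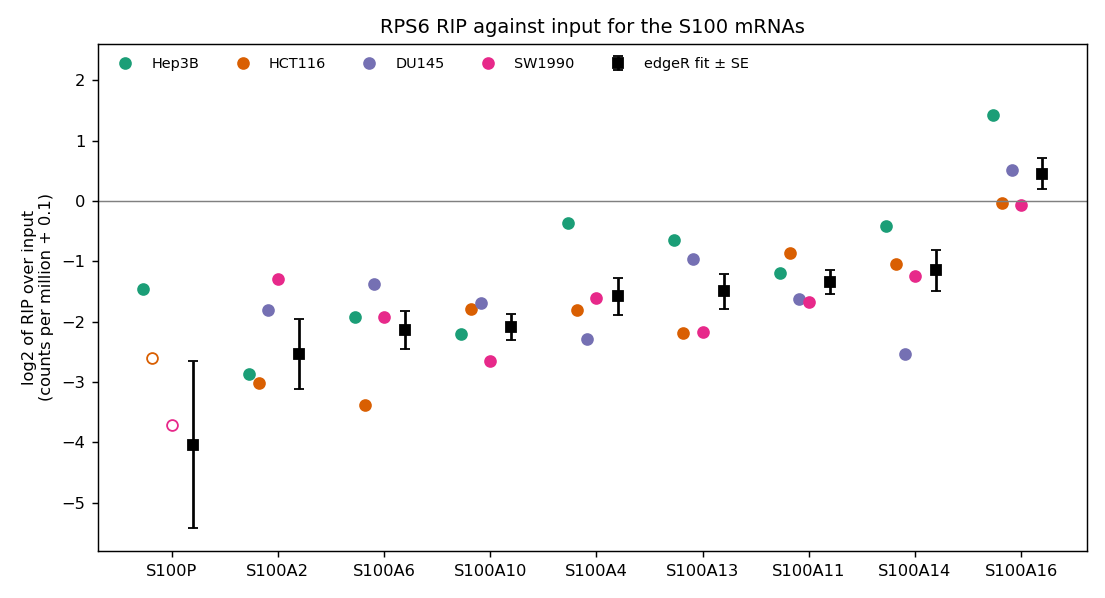
The log2 ratio of RIP over input for each S100 mRNA, from depth-scaled counts with 0.1 added, with 1 circle for each cell line and a black square for the edgeR log2 fold change with its standard error. Open circles mark lines with 0 fragments in the RIP, whose ratio depends on the value added, and S100P in DU145 is not drawn because both its libraries held 0 fragments. S100A16 alone has circles above 0.

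For most of the S100 mRNAs the inputs of the 4 lines spanned a wider range than the fitted difference between RIP and input. In the inputs the liver line was the lowest for S100A2, S100A4, S100A6, S100A10, S100A11, S100A13 and S100A16. The highest input exceeded the lowest by 30.6-fold for S100A10, 29.1-fold for S100A4, 19.3-fold for S100A6 and 13.4-fold for S100A11. S100A13 and S100A16 were the most even, at 3.58-fold and 3.26-fold. S100A14 ran the other way, being nearly absent in DU145 and 392-fold higher in SW1990. With 1 library per line, neighbouring lines in these orders have no replicate error of their own. The line with the highest level was the same in the RIP as in the input for 6 of the 9, and the whole order of the lines was the same for 1 of them, S100A11.

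As a share of all counts, the 9 mRNAs together took 0.142% of the HCT116 input and 0.0273% of its RIP library. In DU145 the share was 0.196% in the input and 0.0817% in the RIP, and in SW1990 it was 0.170% and 0.0444%. In Hep3B the shares were 0.0437% and 0.0429%, close to level. As shares of summed FPKM, Hep3B was higher in the RIP, at 0.0331% in the input and 0.0995% in the RIP. By that measure the input exceeded the RIP by 2.85-fold in HCT116, 1.36-fold in DU145 and 2.55-fold in SW1990, against 5.19-fold, 2.39-fold and 3.82-fold on counts. S100A14 and S100A16 make up much of the Hep3B total, beside the lower RIP values of S100A6, S100A10 and S100A11 in that line. The summed FPKM of the 9 in Hep3B was 549 in the input and 685 in the RIP. This rise was smaller than that of the share, so the share also moved with the FPKM total of all genes.

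The other S100 genes were mostly scarce. Of 15 further S100 names in the files, pseudogenes and the S100P binding protein S100PBP included, 6 were at 0 in all 8 libraries and 4 could be tested. S100A1, S100A3 and S100A5 gave log2 fold changes of -0.40, -0.36 and 0.24, none of them called. S100PBP, which is not an S100 protein and was not scarce at 11.1 to 27.4 FPKM, was lower in the RIP, with a log2 fold change of -0.80 and an adjusted p of 0.00410. The pseudogenes S100A11P1 and S100A11P2 held at most 3 and 2 fragments in any library, so few reads of S100A11 were assigned to them.

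The mRNAs of other calcium-binding proteins without a signal peptide were mostly lower in the RIP too. Of 15 cytosolic EF-hand mRNAs, 10 were lower and 0 higher, with a median log2 fold change of -0.91. The lowest were CETN3, a centrosomal centrin, at -2.98 and CALM2, a calmodulin gene, at -2.11, and the highest were PEF1 at 0.49 and EFHD2 at 0.42, neither of them called. Of 8 EF-hand mRNAs of the secretory pathway, 4 were lower and 2 higher, with a median of -0.24. NUCB2 at -2.61 and CALU at -1.61 stood at the low end, and NUCB1 at 1.88 and SDF4 at 1.62 at the high end. Of 24 other short cytosolic proteins, 15 were lower and 0 higher, with a median of -1.34, from DBI at -3.15 and HINT1 at -2.77 to PFN1 at 0.04 and CFL1 at -0.04. Beside the 24.9% background, the shares called lower were 66.7% of the cytosolic EF-hand list, 50% of the secretory list and 62.5% of the short cytosolic list. These counts describe lists of unequal make-up, chosen with earlier results of these data known, and no test was run between them.

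The mRNAs of the proteins that S100 dimers bind are read against all genes tested, of which 26.5% were higher and 24.9% lower. Annexins are calcium-dependent membrane binders, and of 13 tested, 4 were higher, a share near that background, and 1 was lower (7.69%), with a median of 0.34. The highest were ANXA6 at 1.93 and ANXA11 at 1.81, and the lowest were ANXA3 at -0.61 and ANXA4 at -0.36. Of 13 other binding partners, 3 were higher and 4 lower (30.8%), both near the background, with a median of 0.37. CACYBP, the S100A6 partner, was at -2.01 and SUGT1, a chaperone adaptor related to it, at -1.35. MYH9, the nonmuscle myosin that S100A4 binds, was at 1.76. Of 5 tested mRNAs of the S100-fused type, long proteins of the skin barrier that begin with an S100 domain, HRNR (2.95) and FLG (2.53) stood highest and TCHH (-3.60) and TCHHL1 (-1.81) lowest, with 2 called higher and 1 lower.

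**Figure D3:**
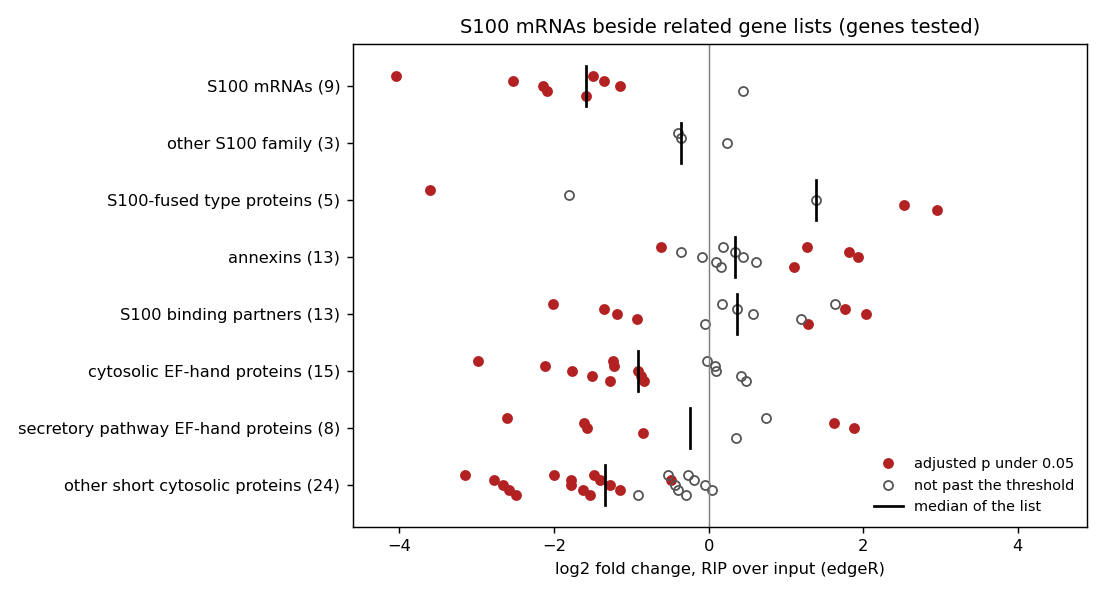
The log2 fold change (RIP over input, edgeR) of every tested gene in the S100 set and in the other lists, 1 point for each gene, with a bar at each list's median. The S100 points lie between -4.04 and 0.45, and the annexins lie between -0.61 and 1.93.

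Annexin A2 and S100A10 form one complex, and their mRNAs parted in the RIP. They were chosen for this look after their values were seen. ANXA2 was at 283 FPKM in the Hep3B input and 651 in its RIP, at 631 and 2533 in HCT116, at 702 and 1264 in DU145, and at 398 and 1065 in SW1990. It was higher in the RIP in all 4 lines, with a log2 fold change of 1.27 ± 0.26 and an adjusted p of 0.00199 in the edgeR test. The FPKM quotient of S100A10 over ANXA2 went from 0.148 to 0.0180 in Hep3B, from 0.393 to 0.0344 in HCT116, from 1.16 to 0.238 in DU145 and from 3.21 to 0.216 in SW1990. The mean log2 change of the quotient was -3.18 ± 0.69 (SD, n = 4 lines), lower in 4 of 4 lines, with an exact two-sided sign-flip p of 0.125, the smallest this design allows. AHNAK, a giant scaffold protein that the S100A10 and annexin A2 complex binds, was higher as well, with a log2 fold change of 1.29 (adjusted p = 0.0134).

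Most of the S100 mRNAs have a short implied length, and mRNAs of short implied length were lower in the RIP as a class. The length used here is the median over the input libraries. It is an estimate from count and FPKM and can depart from the true mRNA length. The length classes were drawn after the values were seen. Among protein-coding genes with an implied length under 600 nt, 53.7% of 350 were lower and 4.29% higher, with a median log2 fold change of -1.21. From 600 to 1000 nt, 39.4% of 1045 were lower and 12.6% higher. From 1000 to 2000 nt the shares were 30.0% and 28.5% of 4059, and from 2000 to 4000 nt they were 24.1% and 34.3% of 5268. At 4000 nt or more, 15.9% of 2823 were lower and 44.6% higher, with a median of 0.62.

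Of the 9 mRNAs, S100P (276 nt), S100A13 (435 nt), S100A11 (464 nt), S100A10 (477 nt), S100A4 (504 nt) and S100A6 (541 nt) fell in the shortest class. S100A2 (692 nt) and S100A16 (980 nt) fell in the next, and S100A14 (1034 nt) in the one after. The RIP libraries gave 319.4 to 570.9 nt for S100A2 and 422.4 to 525.3 nt for S100A14. Those values lie in the range of the shortest class. The S100P length is uncertain, as the median of low-count values of 236.1 nt in the Hep3B input, 819.2 in HCT116 and 275.5 in SW1990. By the HCT116 value alone S100P would fall in the class from 600 to 1000 nt. The log2 fold changes of all 6 in the shortest class lay below that class's median of -1.21. S100A2 at -2.53 lay below its class median of -0.63 and S100A16 at 0.45 above it. S100A14 at -1.15 lay below its class median of -0.02. The order of the class medians held within each line on both scales. In SW1990 the median log2 count ratio ran from -1.44 in the shortest class to 0.67 in the longest, and in Hep3B from -0.63 to 0.28. Implied length moved with the S100 result, and its part in it was not tested.

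**Figure D4:**
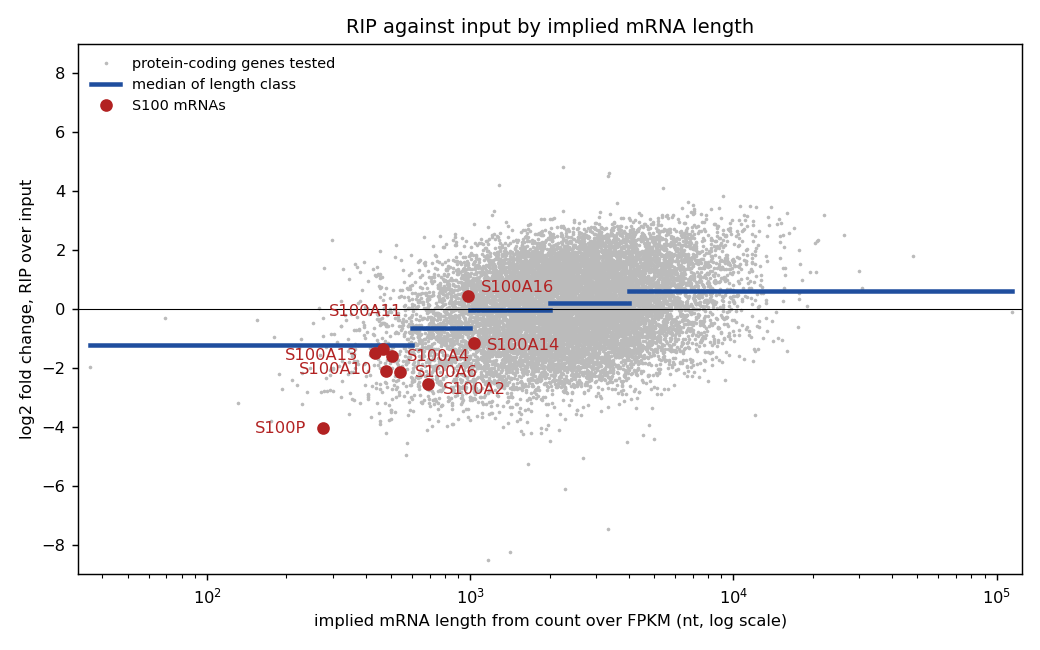
Implied mRNA length in the inputs (nt, log axis) against the log2 fold change of RIP over input for each protein-coding gene tested, in grey. The 9 S100 mRNAs are in red and the median of each length class is a blue bar. The class medians step up from -1.21 under 600 nt to 0.62 at 4000 nt or more, and 6 of the S100 mRNAs sit in the shortest class below its median.

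The 50 bases before each RefSeq start were read for the 9 genes, since their levels differ widely between the lines. RefSeq (GRCh38.p14) lists 13 such windows for them. The letters TATAA were searched on both strands, and 4.74% of all 35116 windows held them on the coding strand and 6.08% on either. Of the 13 windows, 5 held TATAA on the coding strand, and they belong to 5 of the 9 genes. They are given here 5′ to 3′ with that match in capitals, and its first base between 31 and 28 bases before the start. The S100A13 window is one of 3 for that gene. The windows of S100A10 and S100A11, without the letters, are shown beside them.
S100A4, chr1:153545807-153545856, minus strand: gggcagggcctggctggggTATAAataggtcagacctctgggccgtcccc
S100A6, chr1:153535992-153536041, minus strand: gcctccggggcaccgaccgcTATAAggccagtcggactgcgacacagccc
S100A13, chr1:153627506-153627555, minus strand: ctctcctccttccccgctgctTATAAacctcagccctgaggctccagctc
S100A14, chr1:153616326-153616375, minus strand: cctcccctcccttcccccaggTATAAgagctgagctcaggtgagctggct
S100P, chr4:6693828-6693877, plus strand: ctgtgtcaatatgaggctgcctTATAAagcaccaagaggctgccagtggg
S100A10, chr1:151993860-151993909, minus strand: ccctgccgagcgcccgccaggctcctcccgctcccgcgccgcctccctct
S100A11, chr1:152037005-152037054, minus strand: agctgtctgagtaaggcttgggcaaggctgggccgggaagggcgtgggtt

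The windows with the letters belong to genes of both the widest input range that could be computed, S100A14, and one of the narrowest, S100A13. The S100A14 range rests on 42 fragments in the DU145 input. S100P was at 0 in the DU145 input, so it has no such range. S100A10, whose window has 82.0% G and C, the highest of the 13 windows, had an input range of 30.6-fold, beside 29.1-fold for S100A4, whose window holds TATAA. The median over all windows was 60.0%. A match of letters does not show a used site, and the start sites in these cells were not measured here.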

How the data were processed

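RNA from RPS6 RIP and input was sequenced from stranded total-RNA libraries of 4 cell lines, 8 libraries in all. Per the labels, the authors used CASAVA 1.8 and TopHat2 2.0.9 with the hg19 build. The counting tool, its annotation release and its strand setting are not given in the sources used here, and the paper and the series text name different sequencers. The authors deposited FPKM, normalized for length and depth, and an estimated count per gene, scaled by 1 factor per library. Dividing by the most frequent nonzero value of each library gave whole fragments for 78.3 to 91.9% of values above 0 (tolerance 0.01). Columns of the authors' fold changes, p-values and q-values were not used.

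Estimated counts were rounded and tested with edgeR 4.0.16 (R 4.3.3, TMM, quasi-likelihood, cell line as block) over all genes whose mean count reached 10, with Benjamini-Hochberg adjustment at 0.05. The design had named counts, and estimated counts were found. Standard errors were derived from the fold change and the F statistic. Cell line pairs the libraries: deviations from the mean of the 4 lines in each group correlated at 0.84 to 0.89 within a line's own pair (19921 genes). Those of other pairs correlated at most at -0.04, but taking out the group mean itself draws these values below 0. Exact sign-flip tests on log2(FPKM + 1) were two-sided. Alternatives were DESeq2 1.42.0, limma 3.58.1 on log2(FPKM + 1) and log2(FPKM + 0.1), other count minimums, other centring, no block and each pair left out. The test was tested on simulated data. Intervals and floors (3 fragments per library) cover counting error only, and the floors take the input counts as exact. The named genes were the 9 members, the 2 highest and 2 lowest tested genes of each other list, and genes sharing a locus with a member. A gene that this rule names among the binding partners is not reported here. ANXA2, AHNAK and S100PBP were named after their values were seen. The members and lists were chosen with earlier results of these data known. Scripts used Python 3.11.15, pandas 2.3.3, NumPy 2.4.6, SciPy 1.17.1 and matplotlib 3.10.9. Loci are hg19 as deposited, and promoter windows are GRCh38.p14.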

Additional observations from a re-analysis of the deposited data

Results flagged for a closer look

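S100P was flagged in the RIP libraries: on the log2(FPKM + 1) scale Hep3B was at 1.26 and the other 3 lines were at 0. With the other 3 tied at 0, any value above 0 would take up the whole range and be flagged. The Hep3B value rests on 13 fragments. Chance alone marks about 1 in 20 groups, a rate that does not hold for such ties, and this was 1 of 27 groups of 4 libraries examined.

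S100A16 differed in sign between lines. Its log2 ratio of RIP over input was positive in Hep3B and DU145, reaching 1.40 in Hep3B, and slightly below 0 in HCT116 and SW1990, at -0.12 and -0.06, which is nearly level. With 1 library per line and group the difference between lines was not tested.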

How the results depend on the processing

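Over 107 alternative values of the S100 log2 fold changes, 0 reversed, 93 stayed on the same side of the threshold and 14 passed to the other side. All 8 called S100 mRNAs were called by DESeq2, with no count minimum, with protein-coding centring (a shift of 0.13) and on recovered fragments, 7 with a minimum of 50 counts (S100P was not tested), 6 by limma on log2(FPKM + 1) and 7 on log2(FPKM + 0.1). Without the replicate block, 1427 genes were higher and 1344 lower, and the calls were 0 of the S100 mRNAs (adjusted p from 0.159 to 0.822), 0 of the S100-fused mRNAs in either direction, 1 annexin higher and 0 lower, 0 partners higher and 1 lower, 4 cytosolic EF-hand mRNAs lower and 5 short cytosolic mRNAs lower. By limma with 1 added, 0 S100-fused mRNAs were called in either direction, 0 annexins and 2 partners were lower, and 1 cytosolic EF-hand mRNA was higher; with 0.1 added, 1 S100-fused mRNA was higher and 0 lower, and the other values were the same. DESeq2 called 2 cytosolic EF-hand mRNAs higher. By limma only genes with a mean of at least 1 FPKM were tested. TCHH, the S100-fused mRNA called lower by edgeR, did not reach that mean, so limma did not test it. The cause of the other changes was not tested.

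Leaving out one pair gave 6 to 8 S100 mRNAs lower (6 without SW1990, where S100A14 and S100P were lost, and 7 without HCT116, where S100P was lost), 0 to 1 S100-fused mRNAs lower, 0 to 1 annexins lower and 2 to 5 partners higher (5 without Hep3B). The share of lower among called genes was 48.4%, 41.2% by limma with 1 added, 41.8% with 0.1 added, and 53.4% with protein-coding centring. As shares of summed FPKM rather than counts, the 9 mRNAs took 0.264% of the HCT116 input, 0.394% of the DU145 input and 0.346% of the SW1990 input, and 0.0995%, 0.0926%, 0.290% and 0.136% of the Hep3B, HCT116, DU145 and SW1990 RIP. The planned list of short proteins was not run, since no protein table was used here. Low counts limit S100P everywhere, S100A2 in Hep3B and S100A14 in DU145.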
